A study of Mus musculus with 9 samples.

Results

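The 10 genes examined here carry chemokine and neuregulin cues for interneuron migration, and they were followed in mouse medial ganglionic eminence (MGE), a source of cortical interneurons in the embryonic ventral forebrain, with and without knockout of Ctnnb1, the gene for beta-catenin. They are the chemokine gene Cxcl12 and its receptors Cxcr4 and Ackr3, the neuregulin genes Nrg1, Nrg2 and Nrg3, the receptor genes Erbb4, Erbb3 and Egfr, and the migration adaptor gene Elmo1. They were taken by symbol, and all 10 were found among 48526 gene identifiers. RNA sequencing was done on C57BL/6 MGE at embryonic day 14.5, with 5 knockout and 4 control libraries. Every library carries Nkx2.1-cre, a recombinase expressed where Nkx2-1 regulatory sequence is active, and the Rosa26-YFP reporter. The knockouts are Ctnnb1fl/fl, control replicate 4 is Ctnnb1fl/wt, and control replicates 1, 2 and 3 have no floxed Ctnnb1 allele. Recombination is therefore limited to cells with a history of that Cre, and other cells of the eminence keep Ctnnb1. The labels do not say whether each library is a separate embryo, so p-values measure the spread between libraries, which may in part be technical.

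CXCL12 is a secreted chemokine made in the meninges and in the proliferative zones of the cortex, and it holds migrating interneurons in their tangential streams. CXCR4 is the G protein-coupled receptor that transmits the signal, whereas ACKR3, an atypical receptor, binds and removes the ligand and signals through arrestins. Neuregulins are EGF-like ligands that attract MGE-derived interneurons through the receptor tyrosine kinase ERBB4, and ELMO1 acts with DOCK proteins to activate the small GTPase Rac in moving cells.

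The chemokine receptor genes Cxcr4 and Ackr3 and the neuregulin receptor gene Erbb4 were higher in knockout. Egfr, the receptor gene for EGF and related ligands, and Elmo1 rose too. Fold changes of the means ran from 1.99 for Egfr to 4.37 for Erbb4. The ligand genes Cxcl12 and Nrg1 were not called in either direction. Nrg2, Nrg3 and Erbb3 had means under 10 normalized counts and were below the limit for testing, so 7 of the 10 genes were tested. The test was limma on log2(normalized count + 1) across 13780 genes, with Benjamini-Hochberg adjusted p under 0.05 as the threshold. It called 17.2% of all genes tested higher and 17.3% lower, 34.5% in all, and the median log2 fold change over all genes was -0.01. Against that background 5 of the 7 genes tested rose and 0 fell, and their median log2 fold change was 1.10. Of the 7 genes tested, 4 rose with a log2 fold change of at least 1, as did 4.23% of all genes tested. In 4 of the 7 genes the groups did not overlap and knockout was higher, as in 14.5% of all genes tested, and 29.1% were apart in either direction. The call for Egfr was lost without any 1 of 4 libraries. Relative to the whole table, the log2 fold change of Erbb4 was the 58th highest and that of Cxcr4 the 86th highest of 13780, and Ackr3, Elmo1 and Egfr were 301st, 539th and 731st.

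**Figure D1:**
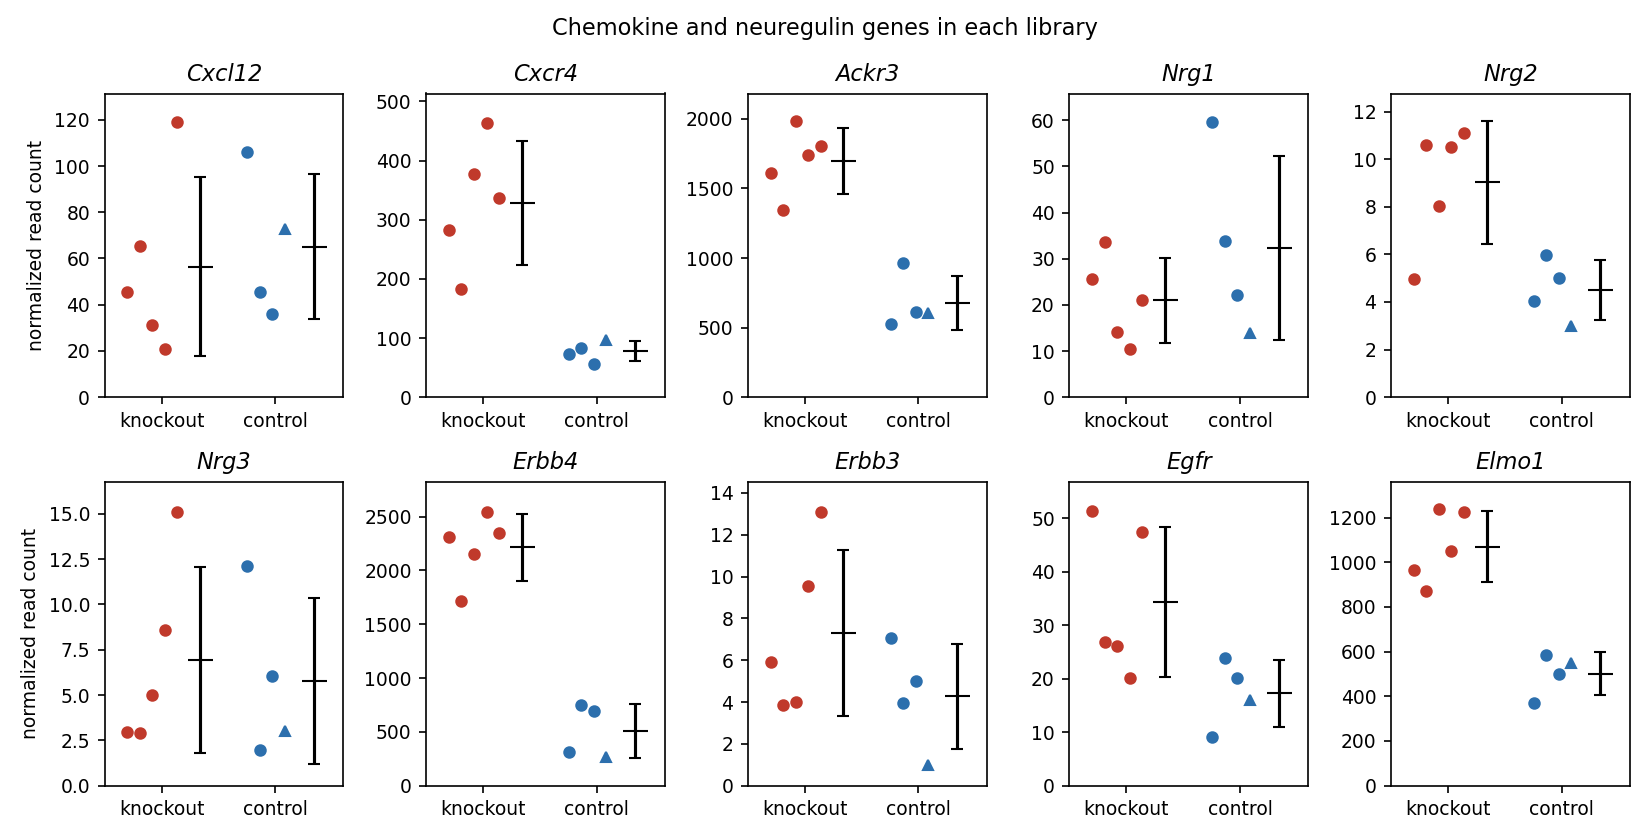
Normalized read count of the 10 genes in each library, with an axis from 0 for each gene. Points are libraries, the triangle is the heterozygous control replicate 4, and the bar is the mean with its SD (n = 5 knockout, n = 4 control); for Cxcr4, Ackr3, Erbb4 and Elmo1 each knockout lies above each control.

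Library totals were alike, from 5331170 to 5569444 reads in knockout and from 5120585 to 5390156 in control. The deposited values are read counts scaled by 1 size factor per library. Ctnnb1 itself was at 7103, 7661, 7133, 6572 and 5477 normalized counts in knockout replicates 1 to 5, against 9841, 9960, 9967 and 9545 in control replicates 1 to 4 (log2 fold change -0.54, SE 0.0960, limma adjusted p = 0.000811). Markers of the MGE lineage were present in each library: the 10 genes, from Nkx2-1 and Lhx6 to Gad1, summed to 31082 to 38832 in knockout and 19371 to 33021 in control. Control replicate 1 stood apart in its content of other tissue, with 2618 summed counts of cortical excitatory markers, against 167 to 556 in the knockouts and 110 to 205 in the other controls, and with 2971 counts of choroid plexus markers, against 166 to 782 in the knockouts and 167 to 366 in the other controls.

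Cxcr4 (chromosome 1, 128588199 to 128592293, minus strand, mm10) had 282, 183, 377, 464 and 337 normalized counts in the knockouts, against 73.8, 82.4, 56.3 and 96.7 in the controls. The lowest knockout, replicate 2, lay well above the highest control, the heterozygous replicate 4. The log2 fold change was 2.03 (SE 0.245, 95% interval 1.49 to 2.57, limma adjusted p = 0.000220). Ackr3 (chromosome 1, 90203980 to 90216751, plus strand) had 1611, 1348, 1984, 1740 and 1808 normalized counts in the knockouts, against 525.6, 966, 611 and 606 in the controls. Control replicate 2 was the highest control and still lay under each knockout. Its log2 fold change was 1.35 (SE 0.163, 95% interval 1.0 to 1.71, adjusted p = 0.000154). The groups did not overlap for either gene.

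Both receptor genes rose, and the balance between them was compared per length of annotated exon. This length is the union of all annotated exons of a gene, so a gene whose expressed transcripts use only part of it is understated. Ackr3 exceeded Cxcr4 in every library, by 2.03 to 3.98 times per kb in knockout (median 2.90) and by 3.38 to 6.33 times in control (median 4.85). These ranges overlap, since knockout replicate 2 lay within the control range. No test was made of this ratio.

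The stretches just upstream of the RefSeq start sites of the chemokine genes and Erbb4 are shown because these receptor genes rose while Cxcl12 was not called. Each has 250 bases, 5′ to 3′ on the gene's strand, in build GRCm38.p6, the same coordinates as mm10: chr1:128592300-128592549 for Cxcr4, chr1:90203730-90203979 for Ackr3, chr1:69108060-69108309 for Erbb4 and chr6:117168285-117168534 for Cxcl12. Capitals mark matches to TATAAA or CTTTGAT on either strand.
Cxcr4: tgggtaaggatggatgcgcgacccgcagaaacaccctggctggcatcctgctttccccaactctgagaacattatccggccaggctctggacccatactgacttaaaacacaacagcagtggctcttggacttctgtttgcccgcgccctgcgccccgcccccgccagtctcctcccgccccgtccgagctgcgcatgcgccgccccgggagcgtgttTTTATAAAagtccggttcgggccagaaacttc
Ackr3: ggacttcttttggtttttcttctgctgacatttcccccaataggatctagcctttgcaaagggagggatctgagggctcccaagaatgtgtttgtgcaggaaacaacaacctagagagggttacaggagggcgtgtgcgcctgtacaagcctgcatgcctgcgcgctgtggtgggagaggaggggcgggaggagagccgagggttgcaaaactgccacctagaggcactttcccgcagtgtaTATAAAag
Erbb4: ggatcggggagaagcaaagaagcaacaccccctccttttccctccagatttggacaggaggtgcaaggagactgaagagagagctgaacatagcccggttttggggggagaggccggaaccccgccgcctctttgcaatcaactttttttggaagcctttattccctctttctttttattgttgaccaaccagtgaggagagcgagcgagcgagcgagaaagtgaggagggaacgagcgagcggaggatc
Cxcl12: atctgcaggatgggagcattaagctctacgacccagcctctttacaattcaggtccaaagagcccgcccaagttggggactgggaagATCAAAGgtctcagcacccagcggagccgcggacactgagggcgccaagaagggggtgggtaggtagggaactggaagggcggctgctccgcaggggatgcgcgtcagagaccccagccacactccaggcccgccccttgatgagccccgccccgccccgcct
TATAAA, the core of the TATA box, lies near the start in Cxcr4, where it overlaps its own reverse-strand match TTTATA. In Ackr3 it lies closer still, with only the bases ag after it in the window. In 1 Elmo1 window only TTTATA occurs, far from the start, so 3 of the 8 windows read for these genes hold a match. Of 32851 windows of this length over the genome, 12.4% hold it. CTTTGAT, the core bound by TCF/LEF factors, the nuclear partners of beta-catenin, occurs as ATCAAAG in Cxcl12, 1 of the 8 windows, and 3.21% of all windows hold it. Windows were given for 7 of the 10 genes (8 windows, 2 of them for Elmo1), and Erbb3, Nrg1 and Nrg2 had none. The homeodomain core TAATTA was in 0 of these 8 windows and in 4.84% of all windows. A match is a description of the letters only, and no match says nothing about whether the factor binds elsewhere.

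Cxcl12 (chromosome 6, 117168535 to 117181367, plus strand) showed no group difference that passed the test. It had 45.5, 65.4, 31.1, 21.0 and 119 normalized counts in the knockouts, against 106, 45.7, 36.2 and 72.7 in the controls. The highest library was knockout replicate 5 and the lowest knockout replicate 4, so the knockouts span the whole control range. The log2 fold change was -0.33 (SE 0.50, 95% interval -1.46 to 0.79, limma adjusted p = 0.640). Single libraries moved this value: it was -0.05 without knockout replicate 4, -0.06 without control replicate 1, -0.19 without knockout replicate 3, -0.57 without control replicate 3 and -0.66 without knockout replicate 5. Against control replicates 2 and 3 alone it was 0.21, and none of these passed.

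The spread of Cxcl12 followed that of meningeal and fibroblast transcripts. The sum of 10 such markers, among them Col1a1, Dcn and Foxc1, was 1327, 1363, 865, 653 and 3514 normalized counts in knockout replicates 1 to 5, against 2226, 1104, 732 and 2005 in control replicates 1 to 4. Within the knockouts, and likewise within the controls, the libraries fall in the same order by Cxcl12 as by this sum. Over the 9 libraries, on log2 values, Pearson's r was 0.956 (exact permutation p = 7.16e-05, adjusted p = 0.00158) and Spearman's rho 0.967 (exact permutation p = 0.000165, adjusted p = 0.00364), two-sided. Without knockout replicates 4 and 5, the libraries farthest from the median of the sum, r was 0.931 over 7 libraries. The relation was noticed in these data before it was tested, so the p-values describe it and are not independent support. It is 1 of 22, Cxcl12 and Nrg1 each against 11 marker lists, and the adjustment is over those 22. It was the only 1 of the 22 with an adjusted p under 0.05. Without adjustment, Pearson's exact permutation p was also under 0.05 for Cxcl12 with microglial (r 0.677) and erythroid markers (r 0.672). Spearman's was under 0.05 for Cxcl12 with microglial markers (rho 0.717) and for Nrg1 with oligodendrocyte precursor markers (rho -0.7). None of the 10 meningeal markers passed limma's test between the groups (1 at an unadjusted p under 0.05; 1 fell without control replicate 2), and whether meninges in the dissection set the Cxcl12 level was not tested.

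**Figure D2:**
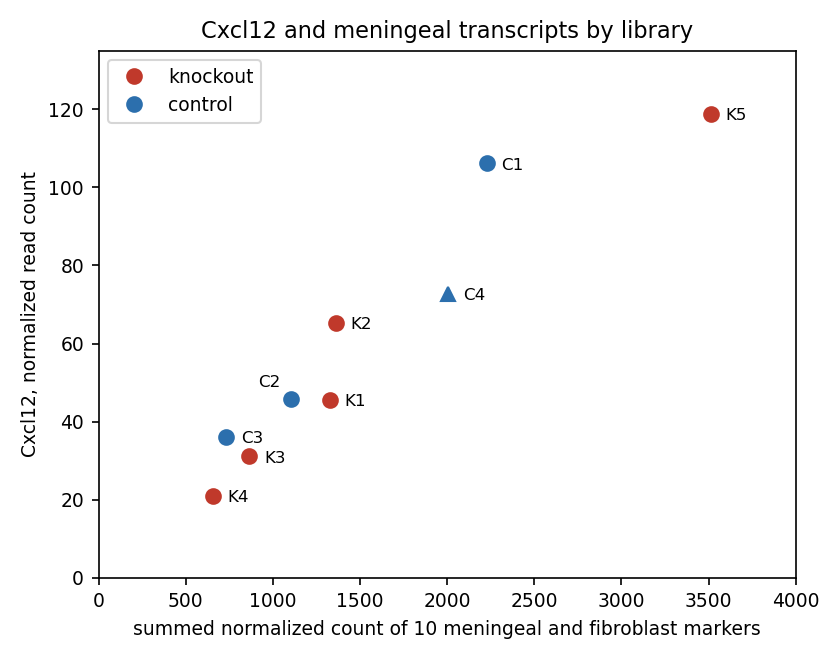
Cxcl12 (vertical, normalized read count) against the summed normalized count of 10 meningeal and fibroblast markers (horizontal); each point is a library, K knockout and C control with the replicate number, and the triangle is the heterozygous control. Cxcl12 runs from 21.0 in K4 to 119 in K5, the libraries with the lowest and highest marker sums, 653 and 3514.

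Erbb4 (chromosome 1, 68032186 to 69108059, minus strand), the neuregulin receptor of MGE-derived interneurons, had 2307, 1718, 2154, 2548 and 2344 normalized counts in the knockouts, against 317, 752, 690 and 265 in the controls. The controls fell into a lower pair, replicates 1 and 4, and a higher pair, replicates 2 and 3, all under the lowest knockout. The log2 fold change was 2.26 (SE 0.328, 95% interval 1.51 to 3.01, limma adjusted p = 0.00136), and 1.61 (SE 0.132) against control replicates 2 and 3 alone. Those replicates are the higher pair for Erbb4 itself, so the smaller SE leaves out most of the control spread and is not a gain in precision. Control replicates 1 and 4 also had the lowest sums of MGE lineage markers among the controls, 19371 and 25131, against 33021 and 29176 in replicates 2 and 3. They had the highest sums of erythroid markers, 9553 and 12730, against 2814 and 5770 in replicates 2 and 3. The part of these differences in the low Erbb4 values was not tested.

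Erbb3 (chromosome 10, 128567523 to 128589652, minus strand), a neuregulin receptor with little kinase activity of its own that is known from Schwann cells and their precursors, was close to the limit of detection. It had 5.93, 3.85, 4.01, 9.57 and 13.1 normalized counts in the knockouts, against 7.08, 3.97, 5.02 and 0.996 in the controls. The groups overlapped, and without the filter on low values the log2 fold change was 0.69 (SE 0.447, limma adjusted p = 0.385). The SEs and p-values of that fit, also those given for Nrg2 and Nrg3, are uncertain. For Cxcr4 it gave a limma adjusted p of 1.43e-38, against 0.000220 in the main fit. Markers of oligodendrocyte precursors summed to 295 to 482 counts in knockout and 263 to 353 in control, and Sox10, a transcription factor of the oligodendrocyte and Schwann cell lineages, averaged 13.0 in knockout and 8.0 in control and did not pass the test (adjusted p = 0.253). Of the 6 such markers tested 1 rose, Olig1 (0.48, SE 0.168, adjusted p = 0.0388), a factor also made by ventral forebrain progenitors. That call did not hold without any 1 of control replicates 1, 2 and 4 and knockout replicates 3 and 5, where 0 of these markers passed.

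Egfr (chromosome 11, 16752203 to 16918158, plus strand), the receptor of EGF, TGF-alpha and related ligands, had 51.4, 26.9, 26.1, 20.1 and 47.4 normalized counts in the knockouts, against 9.10, 23.8, 20.1 and 15.9 in the controls. Knockout replicates 1 and 5 were high, while knockout replicate 4 was level with control replicate 3 and below control replicate 2. The log2 fold change was 0.94 (SE 0.323, 95% interval 0.25 to 1.63, limma adjusted p = 0.0356). This call did not hold without control replicate 1 (0.68, adjusted p = 0.113), control replicate 4 (adjusted p = 0.0769), knockout replicate 1 (0.78, adjusted p = 0.0900) or knockout replicate 5 (adjusted p = 0.0798).

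**Figure D3:**
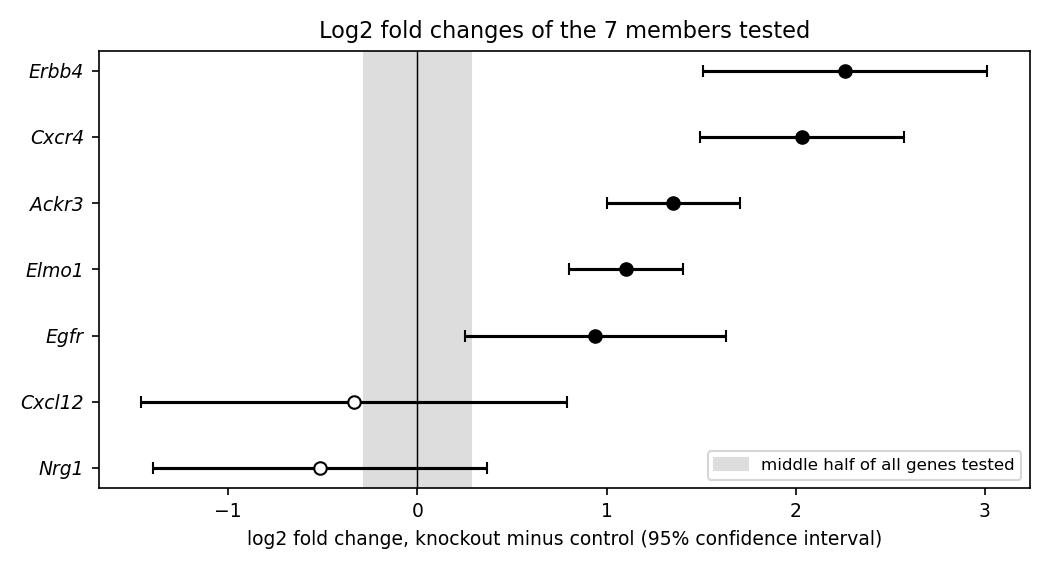
Log2 fold change (knockout minus control on log2(normalized count + 1), horizontal) of the 7 genes tested, with 95% intervals; points are filled where the adjusted p is under 0.05, and the grey band is the interquartile range of all 13780 genes, -0.28 to 0.28. Erbb4 (2.26) and Cxcr4 (2.03) lie farthest out, and the intervals of Cxcl12 and Nrg1 span 0.

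Nrg1 (chromosome 8, 31814551 to 32884029, minus strand) encodes the best studied neuregulin, in membrane-bound and secreted forms that attract interneurons over short and long range. It had 25.7, 33.7, 14.0, 10.5 and 21.2 normalized counts in the knockouts, against 59.6, 33.8, 22.1 and 14.0 in the controls. Control replicate 1 was the highest library, and the other controls lay in or close to the knockout range. The log2 fold change was -0.52 (SE 0.408, 95% interval -1.40 to 0.37, limma adjusted p = 0.351) and also did not pass without control replicate 1 (-0.17), knockout replicate 4 (-0.31) or control replicate 4 (-0.84, adjusted p = 0.129).

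The other neuregulin genes were scarce. Nrg2 (chromosome 18, 36017652 to 36197380, minus strand) had 4.95, 10.6, 8.02, 10.5 and 11.1 normalized counts in the knockouts, against 4.04, 5.96, 5.02 and 2.99 in the controls. All knockouts but replicate 1 lay above all controls. Without the filter its log2 fold change was 0.85 (SE 0.418, limma adjusted p = 0.192). Nrg3 (chromosome 14, 38368952 to 39473088, minus strand), which in mouse cortex guides interneurons into the cortical plate, had 2.97, 2.88, 5.02, 8.61 and 15.1 normalized counts in the knockouts, against 12.1, 1.99, 6.03 and 2.99 in the controls. Knockout replicate 5 and control replicate 1 were its highest libraries, and the groups overlapped (0.24, SE 0.443, adjusted p = 0.762).

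Elmo1 (chromosome 13, 20090596 to 20608353, plus strand) had 965, 872, 1239, 1051 and 1224 normalized counts in the knockouts, against 368, 587, 498 and 549 in the controls. Knockout replicate 2 was the lowest knockout and lay above control replicate 2, the highest control. The log2 fold change was 1.10 (SE 0.140, 95% interval 0.80 to 1.40, limma adjusted p = 0.000142). Elmo1 is also known from phagocytes, and the summed markers of microglia were 243 to 468 in knockout and 365 to 520 in control. None of the 9 microglial markers tested passed limma's test, and 3 had an unadjusted p under 0.05. Without knockout replicate 5, the highest knockout, 4 of the 9 fell, and 1 fell without any 1 of control replicates 2, 3 and 4. The part of microglia in the Elmo1 values was not tested.

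The 10 genes fall into a higher and a lower tier when levels are given per kb of exon. The length is again the union of all annotated exons, with the same limit for comparisons between genes. In knockout, Ackr3 averaged 507 ± 71.0 normalized counts per kb (SD, n = 5), Cxcr4 182 ± 58.2, Erbb4 179 ± 25.2 and Elmo1 85.1 ± 12.7. In control, Ackr3 averaged 202 ± 58.8 per kb (SD, n = 4), Cxcr4 42.7 ± 9.34, Erbb4 41.0 ± 20.3 and Elmo1 39.8 ± 7.60. Cxcr4 and Erbb4 overlapped over libraries in both groups, and in control Elmo1 overlapped with Erbb4 too. Cxcl12 followed at 6.90 ± 4.73 per kb in knockout and 7.97 ± 3.84 in control, apart from Elmo1 in each group. The other 5 genes averaged 1.01 to 3.04 per kb in knockout and 0.709 to 3.13 in control, and each overlapped with its neighbours in that order. Per kb, Cxcr4, Ackr3 and Erbb4 lay above all 4 ligand genes in every library.

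**Figure D4:**
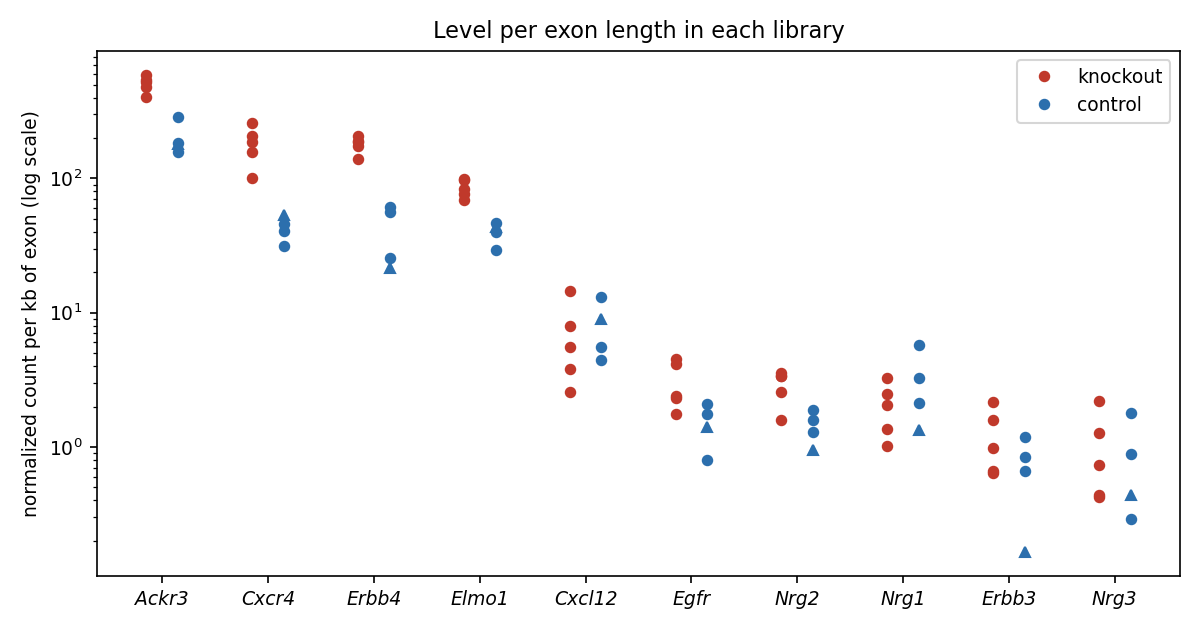
Normalized count per kb of annotated exon (vertical, log scale) of the 10 genes in each library, ordered by the knockout mean, knockout left of control and the triangle for the heterozygous control. The lowest value of Ackr3, Cxcr4, Erbb4 and Elmo1 is 21.5 and the highest value of the other genes is 14.5.

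Neuronal transcripts rose in the same libraries. Of 10 neuron markers, such as Dcx and Tubb3, 7 rose and 0 fell, and their sum was 29567 to 37232 in knockout and 16741 to 21419 in control. Of 10 radial glia markers, such as Nes and Vim, 0 rose and 6 fell, with sums of 13050 to 16862 in knockout and 21608 to 27185 in control. Of 10 MGE lineage markers, 7 rose and 0 fell, and 4 rose and 1 fell against control replicates 2 and 3 alone. In bulk libraries, more cells of a type and more RNA per cell cannot be told apart. The genes were also expressed per 1000 counts of the neuron markers, a ratio that cannot tell these apart either. On that scale Cxcr4 was 6.18 to 14.1 in knockout (median 9.04) and 2.70 to 5.44 in control (median 4.13), and Erbb4 was 58.1 to 77.6 in knockout (median 63.0) and 14.9 to 35.1 in control (median 26.0). Ackr3 was 45.6 to 56.3 in knockout (median 48.7) and 29.3 to 45.1 in control (median 32.7). The groups of these 3 genes did not overlap, for Ackr3 only narrowly, with 45.6 in the lowest knockout and 45.1 in control replicate 2. Elmo1 overlapped, at 29.2 to 35.2 in knockout and 22.0 to 30.9 in control, and so did Egfr, at 0.612 to 1.55 in knockout and 0.543 to 1.11 in control. Per 1000 counts of the MGE lineage markers, Elmo1 was at 25.7 to 35.1 in knockout and 17.1 to 21.8 in control, so the groups were apart there, as they were for Cxcr4, Ackr3 and Erbb4. Egfr overlapped on that scale too, at 0.646 to 1.54 in knockout and 0.470 to 0.722 in control. No test was made of these ratios, and the share of all genes with groups apart was not computed on either scale.

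**Figure D5:**
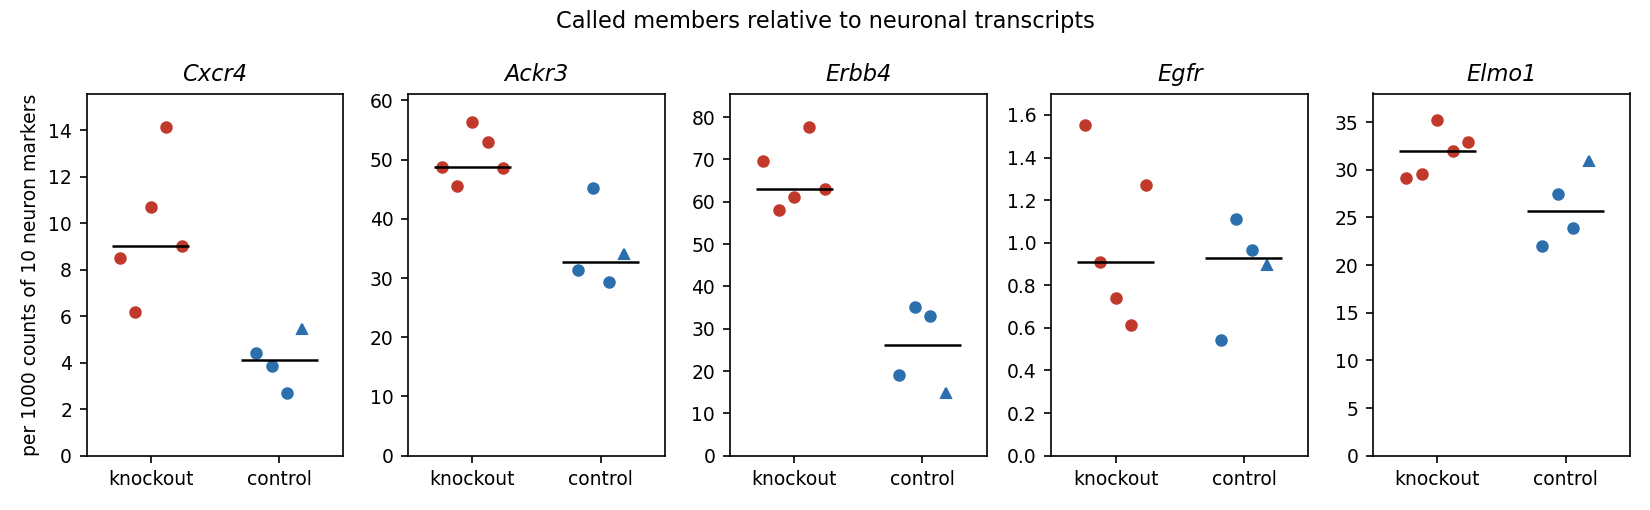
Normalized count of the 5 called genes per 1000 summed counts of 10 neuron markers (vertical, from 0), knockout left of control; points are libraries, the line is the group median and the triangle is the heterozygous control. The medians are 63.0 in knockout and 26.0 in control for Erbb4, and 0.911 in knockout and 0.930 in control for Egfr.

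Likeness of pattern was measured as the root mean square difference between centred log2 profiles over the 9 libraries. The profiles compared come from the same libraries and hold the difference between the groups, and no test was made of likeness. Nearest to Cxcr4 were Etv5 (0.21), Prokr2 (0.21) and Ubash3b (0.23). Nearest to Ackr3 were Srsf12 (0.08), Spats2l (0.13) and Ankrd50 (0.14), and nearest to Erbb4 were the AMPA receptor gene Gria4 (0.21), the interneuron transcription factor gene Maf (0.22) and Efcab6 (0.22). Among the 10 genes, Ackr3 and Elmo1 were close (0.20), Cxcr4 was 0.48 from Ackr3 and 0.62 from Erbb4, and Cxcr4 and its ligand gene Cxcl12 were 1.5 apart.

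The other chemokine genes tested ran in log2 fold change from -1.65 for Cxcl14, which was not called, to 1.44 for Ackr1. Their median was -0.11. Cx3cr1 was at -0.70 (SE 0.267) and did not pass (limma adjusted p = 0.0546). Of 25 further chemokines and receptors, 7 were tested, 1 rose and 1 fell, a called share of 28.6% beside 34.5% of all genes tested. Ackr1, an atypical chemokine receptor of erythrocytes and venules, had 38.6, 26.9, 37.1, 46.9 and 67.5 normalized counts in the knockouts, against 19.2, 21.9, 12.1 and 8.97 in the controls (log2 fold change 1.44, SE 0.298, limma adjusted p = 0.00219). Endothelial markers summed to 1297 to 1562 in knockout and 1090 to 1500 in control, and erythroid markers to 3324 to 7928 in knockout and 2814 to 12730 in control. Of either list 0 passed limma's test, and 0 had an unadjusted p under 0.05, though 1 erythroid marker fell without control replicate 2. The part of vessel or blood content in the Ackr1 values was not tested. Mif, a cytokine that also binds CXCR4, averaged 227 ± 14.9 in knockout and 337 ± 94.7 in control (-0.53, SE 0.152, adjusted p = 0.0153), and 0 genes of this list fell without control replicate 4, 2 without knockout replicate 5 and 3 without control replicate 3.

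Downstream of chemokine receptors, 6 of 21 tested transduction genes rose and 2 fell, and the median log2 fold change was 0.19. The called share was 38.1%, near the 34.5% of all genes tested. Grk3, a kinase that desensitises such receptors, averaged 109 ± 15.5 in knockout and 43.0 ± 13.8 in control (1.36, SE 0.201, limma adjusted p = 0.000282). The arrestin gene Arrb1, whose product binds activated receptors, averaged 779 ± 168 in knockout and 334 ± 62.9 in control (1.21, SE 0.162, adjusted p = 0.000241). The G protein subunit genes Gng2 (1.10, SE 0.128) and Gng3 (1.05, SE 0.117) rose as well. The 2 that fell were Gnai2 (-0.30, SE 0.0815, limma adjusted p = 0.0110) and Rgs16 (-0.46, SE 0.154, limma adjusted p = 0.0316). The number that fell was 1 without any 1 of control replicates 3 and 4 and knockout replicates 4 and 5.

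Of 9 other receptors and EGF family ligands, 5 were tested and 0 passed, with 1 at an unadjusted p under 0.05, Erbb2. This co-receptor gene Erbb2, with which ERBB3 and ERBB4 can pair, averaged 79.2 ± 16.7 in knockout and 101 ± 12.7 in control (-0.36, SE 0.166, limma adjusted p = 0.108). Of 12 tested genes for the proteases and gamma-secretase parts that process neuregulins and ERBB4, 4 rose, among them Adam19 (0.93, SE 0.160), a protease of neuregulin, and Bace1 (0.50, SE 0.116), and 2 fell, Adam17 (-0.28) and Adam9 (-0.26). The list had 6 of 12 called, beside 34.5% of all genes tested, and a median of 0.15. Against control replicates 2 and 3 alone, 1 rose and 0 fell. Of the falls 1 passed without control replicate 1 or 2, and 0 passed without any 1 of the other libraries.

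Of 28 tested adaptors and regulators of ERBB receptors, 10 rose and 4 fell, with a median of 0.07. The shares over all genes tested were 17.2% higher and 17.3% lower. Dlg4, the postsynaptic scaffold PSD-95 that binds ERBB4, averaged 788 ± 156 in knockout and 438 ± 49.1 in control (0.83, SE 0.136, limma adjusted p = 0.000559). Errfi1, an inhibitor of EGFR family kinases, rose by 0.89 (SE 0.159), and Rnf41, a ubiquitin ligase for ERBB3, by 0.60 (SE 0.105). The docking protein gene Gab1 fell by 0.51 (SE 0.0969). Against control replicates 2 and 3 alone, 5 rose and 1 fell.

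In the ELMO, DOCK and Rac list, 8 of 25 tested genes rose and 2 fell, with a median of 0.07. The called share was 40.0%, beside 34.5% of all genes tested. Pak1, a kinase activated by Rac, averaged 1044 ± 142 in knockout and 646 ± 4.61 in control (0.68, SE 0.100, limma adjusted p = 0.000265). The Rac exchange factor gene Tiam1 rose by 0.66 (SE 0.141) and Rac3 by 0.95 (SE 0.229), whereas Dock1, an exchange factor that partners ELMO1, fell by 0.72 (SE 0.154): it averaged 233 ± 56.8 in knockout and 373 ± 18 in control. Elmo2 averaged 816 ± 49.3 in knockout and 721 ± 63.7 in control and did not pass (0.18, adjusted p = 0.128). The number that fell was 1 without any 1 of control replicates 1, 2 and 4 and knockout replicates 1, 3 and 5. Against control replicates 2 and 3 alone, 4 rose and 1 fell.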

How the data were processed

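The deposited file holds 1 signal value per gene and library: read counts that the authors divided by 1 size factor per library, as the values show (100.0% of values within 0.01 of a whole number of reads, once each library's step was found). The tools named are TopHat2 2.1.1 and HTSeq 0.9.1, with DESeq2 in R 3.4.0 and build mm10, per the submitters' processing notes. Their roles, the annotation and the strand setting are not stated. Without strand, Nrg1 cannot be told from the opposite-strand Gm26578 (mean 3.09 normalized counts), whose exons overlap it, nor Elmo1 from Gm32036 or Ctnnb1 from Ulk4. Count models were not used, because a separate automated check of these steps failed in 7 of the 9 libraries.

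Positions and exon lengths are from GENCODE M21 (mm10), upstream sequences from RefSeq (GRCm38.p6). Groups were compared with limma 3.58.1, its trend and robust options on (R 4.3.3, statmod 1.5.0), two-sided, on log2(normalized count + 1), for 13780 genes with a mean of at least 10, using all 9 libraries; the scale understates changes of low genes. Errors beside means are SD and beside log2 fold changes SE. From each of 6 pathway lists up to 4 called genes with the smallest p were to be named. For each of Cxcr4, Ackr3 and Erbb4 the 3 nearest profiles were to be named too. Adam9, Adam17, Cx3cr1, Elmo2, Erbb2, Gnai2 and Rgs16 were named after their values were seen. The genes, pathway lists and marker lists were chosen with earlier results of these data known, as were the ratios to marker sums, the relations of Cxcl12 and Nrg1 with markers, and the sequence motifs. Simulated data were used to test the procedure.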

Additional observations from a re-analysis of the deposited data

How the results depend on the processing

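The calls of Cxcr4, Ackr3, Erbb4 and Elmo1 held in each of the 19 alternatives: a pseudocount of 0.5 or 8, a minimum mean of 50 or none, upper-quartile or TMM scaling, plain limma without its trend and robust options, quality weights per library, the replicate block, each library left out in turn, and control replicates 2 and 3 alone as controls. Their log2 fold changes ranged over 1.89 to 2.23, 1.13 to 1.54, 1.61 to 2.50 and 0.96 to 1.19 for these genes in turn. With the replicate block Erbb4 passed only narrowly (2.24, SE 0.459, limma adjusted p = 0.048). Egfr passed in 11 of 18; it did not pass in plain limma (adjusted p = 0.0554), against control replicates 2 and 3 alone (0.54, adjusted p = 0.316), with the block (0.81, adjusted p = 0.124) or without any 1 of 4 libraries, and its mean was under the minimum of 50. Cxcl12 was at 0.21 against control replicates 2 and 3 alone, reversed in sign from -0.33 over all controls, and neither value passed. In that comparison 1387 genes of the whole table rose and 1112 fell; fewer samples entered it. No pairing by replicate number was seen: the correlations of same-numbered deviations were -0.117, -0.0916, 0.137 and -0.0406, and 0 of 4 controls correlated best with their own number. So few correlations cannot exclude a pairing, and the labels state none. Knockout replicate 5 has no control of its number and adds nothing to the difference under the block. With the replicate block 4 of the 10 genes were called higher, and 1829 genes of the table rose and 1681 fell. Genes with under 10 normalized counts, Erbb3, Nrg2 and Nrg3, are limited by depth. The fit without a minimum mean gave limma adjusted p-values as low as 1.43e-38 for Cxcr4, so passing in that alternative adds little.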

Other observations

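Cxcl14, a chemokine gene outside the named set and picked after its values were seen, had 2.97, 5.77, 2.01, 1.91 and 8.06 normalized counts in the knockouts, against 100.1, 3.97, 2.01 and 28.9 in the controls. Control replicates 1 and 4 were high and the other controls lay in the knockout range, and the gene did not pass (log2 fold change -1.65, SE 0.922, limma adjusted p = 0.190). The chemokine gene Ccl3, also picked after its values were seen and too low to test, had 2.97, 2.88, 6.02, 5.74 and 3.02 normalized counts in the knockouts, against 0, 0, 3.01 and 0 in the controls.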
